A study of Sus scrofa with 4 samples.

Results

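The transcripts of 10 genes of mitosis and chromosome segregation were followed in porcine granulosa cells (GCs) exposed to elevated non-esterified fatty acids (NEFAs). The genes were TOP2A, TPX2, UBE2C, KIF23, KIF20A, NCAPG, NCAPH, NCAPD2, SMC4 and BUB3, out of 9962 genes with a named probe that had a value on all 4 arrays. They were picked by symbol when the NEFA to control ratios of these arrays were already known, so their ratios and p-values describe them and are not an independent test of them. The array annotation named 17 probes for the 10 genes, and the brightest probe stood for each gene.

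GCs from follicles of slaughterhouse ovaries were grown as monolayers for 7 days and then shared their wells with cumulus-oocyte complexes (COCs) for the 44 h of in vitro maturation (IVM). In the NEFA group the IVM medium held palmitic, stearic and oleic acid, while the control medium held only their carriers, bovine serum albumin and ethanol, in equal amount. EGF, FSH, LH, dibutyryl-cyclic AMP, porcine follicular fluid and gentamycin were given to both groups, and the fresh medium of both at 22 h was supplemented with EGF and follicular fluid alone. A replicate was the RNA of the pooled wells of 1 plate, the 4 replicates were collected on different days, and the paired NEFA and control RNAs of a replicate shared 1 of the arrays A to D in different dyes.

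A dividing cell copies its chromosomes, untangles and condenses them, attaches them to a spindle, separates them once a checkpoint is satisfied, and then splits in cytokinesis. Transcripts of this machinery accumulate in G2 and mitosis and are scarce in resting cells, which is why they are used as a sign of proliferation. GCs divide while a follicle grows and leave the cell cycle when they luteinize after the LH surge. In RNA from a whole monolayer, fewer dividing cells and less transcript per cell cannot be told apart.

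The direction of the ratios was not settled by the labels. Ratios are given as NEFA over control by the channel fields, and the array titles name the opposite dyes on all 4 arrays, so that by the titles each sign is turned. Although A and B carried the same dye labels, they ran against each other, with a Pearson r of -0.74 between their log2 red to green ratios across probes, where probes are not independent replicates. The 58 control probes also ran the opposite way on array A, with r = -0.99 against the mean of the other arrays. Arrays B, C and D each had an r of 0.96 to 0.99 against the mean of the rest of B, C and D. The median local background of array A was 117 in green and 63.3 in red. On arrays B, C and D it was 60.8 to 75.1 in green and 116 to 173 in red. ANGPTL4, a fatty acid-induced target of PPARs, had log2 ratios of 3.04, 3.03 and 3.47 on arrays B, C and D and -2.72 on array A as headed, and with array A exchanged its adjusted p from limma was 0.0094. Each result is therefore given with the scanner columns as headed and with the channels of array A exchanged, and arrays B, C and D alone gave a value without array A in the fit. The quantile normalization before that fit still included array A.

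Between 23.9% and 42.7% of probes were above background, depending on array and dye, where the limit was 2 SD over the mean of 153 negative control spots. Of 14 granulosa markers 6 had a named probe, FSHR, CYP19A1 and FOXL2 not among them. Of these 6, AMH and FST were above background in all 8 channels and NR5A1 in 6, while INHBA, LHCGR and CDH2 were above it in none. Of 6 measured fibroblast and smooth muscle genes, ACTA2, DCN and TAGLN were above background in all 8 channels, CNN1 in 5, COL1A1 in 3 and PDGFRB in 1. Of 9 measured genes of the cumulus and oocyte list, GDF9, FIGLA and HAS2 were above it in all 8 and PTX3 in 4. The others, ZP2, ZP3, ZP4, BMP15 and ZAR1, were above it in none. None of the 3 measured luteal or theca, 3 immune and 3 endothelial markers was above background in all 8 channels. The log2 of the summed intensity of the granulosa list, 12.8 to 14.2 in NEFA RNA and 12.2 to 13.7 in control RNA, overlapped, and so did that of the fibroblast and smooth muscle list, 16.5 to 16.8 in NEFA RNA and 16.7 to 16.8 in control RNA. These ranges leave out the pairing by array, so they do not show whether the paired RNAs differed. The part of these cell types in the results was not tested.

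All 10 genes had a fitted ratio below 0 under both readings of array A, with a median log2 ratio of -0.24 with the columns as headed and -0.60 with array A exchanged. Over all 9962 genes the medians were -0.02 and -0.01. With the columns as headed, 1 of the 10, UBE2C, was lower in NEFA-exposed GCs past the criterion, which asked for a p below 0.05 before adjustment and at least a 1.2-fold difference, against 0.522% of all genes. After the exchange 9 of the 10 were lower past it, all but SMC4, against 3.08% of all genes, and on arrays B, C and D alone 6 were lower, against 2.39%. None was higher under any of these readings, against 0.281%, 1.08% and 0.733% of all genes in the same order. By the titles the same 1, 9 and 6 genes would be higher in NEFA-exposed GCs, and the median as headed would be 0.24. The sign of ANGPTL4 would then turn as well, so that it would be lower in NEFA RNA on arrays B, C and D. After Benjamini-Hochberg adjustment over all 43794 probes no member passed, with an adjusted p from limma of 1.00 for all 10 as headed and of 0.612 to 1.00 with array A exchanged.

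**Figure D1:**
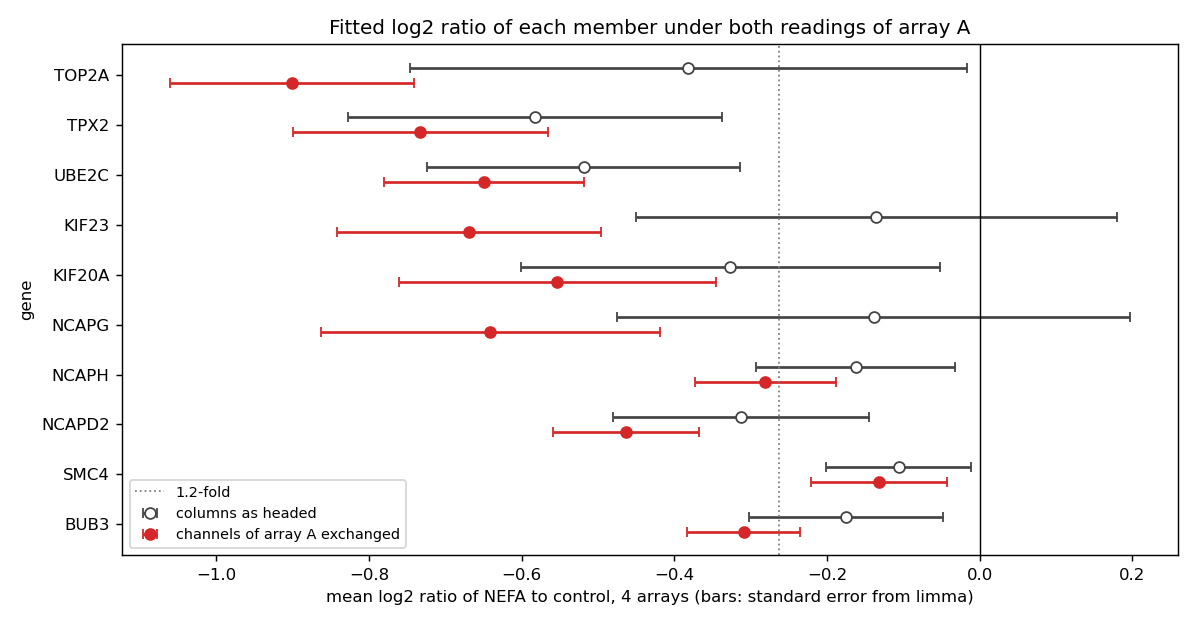
Fitted mean log2 ratio of NEFA to control over 4 arrays (x axis) for each of the 10 genes (rows), with the columns as headed (open points) and with the channels of array A exchanged (red points); bars are standard errors from limma and the dotted line is a 1.2-fold decrease. All points lie left of 0, and each gene lies further left after the exchange, TOP2A at -0.90 against -0.38 as headed and SMC4 at -0.13 against -0.11.

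TOP2A encodes topoisomerase II alpha, which cuts and passes DNA strands to untangle sister chromatids. Levels are given with the columns as headed, and the exchange swaps the NEFA and control levels of array A. The log2 normalised intensity of TOP2A was 10.88, 10.26, 10.19 and 9.99 in the NEFA RNA of arrays A, B, C and D, against 9.84, 11.48, 11.24 and 10.29 in the control RNA. The NEFA level was the lower one on arrays B, C and D and the higher one on array A, and the groups overlapped. The fitted ratio as headed was -0.38 (standard error 0.36, unadjusted p = 0.334 from limma). TOP2A, with array A exchanged, had the largest decrease of the 10 genes, 1.87-fold (log2 ratio -0.90, standard error 0.16, unadjusted p = 0.00119 from limma), when NEFA levels averaged 10.07 ± 0.19 and control levels 10.97 ± 0.52 (SD, n = 4 each) and no longer overlapped. On arrays B, C and D alone its log2 ratio was -0.85 (standard error 0.20).

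The remaining chromosome genes of the list encode condensin, the ring complex that compacts mitotic chromosomes. SMC4 is an ATPase arm of the ring, shared by both condensins, while NCAPD2, NCAPG and NCAPH are the regulatory subunits found only in condensin I. The 4 subunits differed in the size of their ratios.

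NCAPD2 stood at 9.56, 9.36, 9.60 and 9.52 in the NEFA RNA of arrays A to D, against 9.26, 9.87, 10.31 and 9.86 in the control RNA. The NEFA levels lay within a narrow band, and the control levels of arrays B, C and D were all above it. The ratio was -0.31 as headed (standard error 0.17, unadjusted p = 0.110 from limma) and -0.46 with array A exchanged (standard error 0.10, unadjusted p = 0.00260 from limma), a 1.38-fold decrease. On arrays B, C and D alone NCAPD2 was lower as well (-0.52, standard error 0.12).

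NCAPG stood at 8.58, 8.41, 8.43 and 8.53 in NEFA RNA, against 7.57, 9.59, 9.00 and 8.35 in control RNA. The NEFA levels were nearly alike (SD 0.08), and the control levels, with an SD of 0.87, lay on both sides of them. Its 4 ratios were 1.00 on array A as headed, -1.17 on B, -0.57 on C and 0.18 on D, so that NCAPG was lower on only 2 arrays as headed and on 3 with array A exchanged. These ratios depended on the background correction. On array A as headed the raw intensity was 437 in NEFA RNA and 584 in control RNA, with local backgrounds of 105 and 263. On array B the local backgrounds were 217 and 121. Without background correction the fitted ratio as headed was -0.35 (standard error 0.12). That setting was not run with array A exchanged. The fitted ratio was -0.14 as headed (standard error 0.34, unadjusted p = 0.693 from limma) and -0.64 with array A exchanged (standard error 0.22, unadjusted p = 0.0269 from limma). On arrays B, C and D alone NCAPG did not pass (-0.52, standard error 0.26, unadjusted p = 0.0918 from limma).

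NCAPH, which bridges the ring, stood at 8.49, 8.40, 8.26 and 8.41 in NEFA RNA, against 8.25, 8.88, 8.59 and 8.49 in control RNA. The groups overlapped as headed, and the gap was widest on array B. It had ratios of 0.24 on array A as headed, -0.48 on B, -0.33 on C and -0.08 on D. Its fitted ratio was -0.16 as headed and -0.28 with array A exchanged (standard error 0.09, unadjusted p = 0.0216 from limma), a 1.21-fold decrease that lay close to the limit of the criterion, and on arrays B, C and D alone it missed it (-0.30, standard error 0.12, unadjusted p = 0.0515 from limma). NCAPH and NCAPG were the dimmest against background, being above it in 2 and 3 of the 4 NEFA channels and in all 4 control channels of each.

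SMC4 was the one member that passed neither as headed, nor after the exchange, nor on arrays B, C and D alone. Its levels were 8.58, 8.63, 8.77 and 8.50 in NEFA RNA, against 8.53, 8.75, 8.77 and 8.84 in control RNA, and the ratio reached -0.35 on array D while the other arrays lay between -0.13 and 0.05. The fitted ratio was -0.11 as headed (standard error 0.10, unadjusted p = 0.306 from limma) and -0.13 with array A exchanged (standard error 0.09, unadjusted p = 0.185 from limma). Both were smaller than the SD of the ratio over the 4 arrays, 0.18 as headed and 0.15 with array A exchanged.

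**Figure D2:**
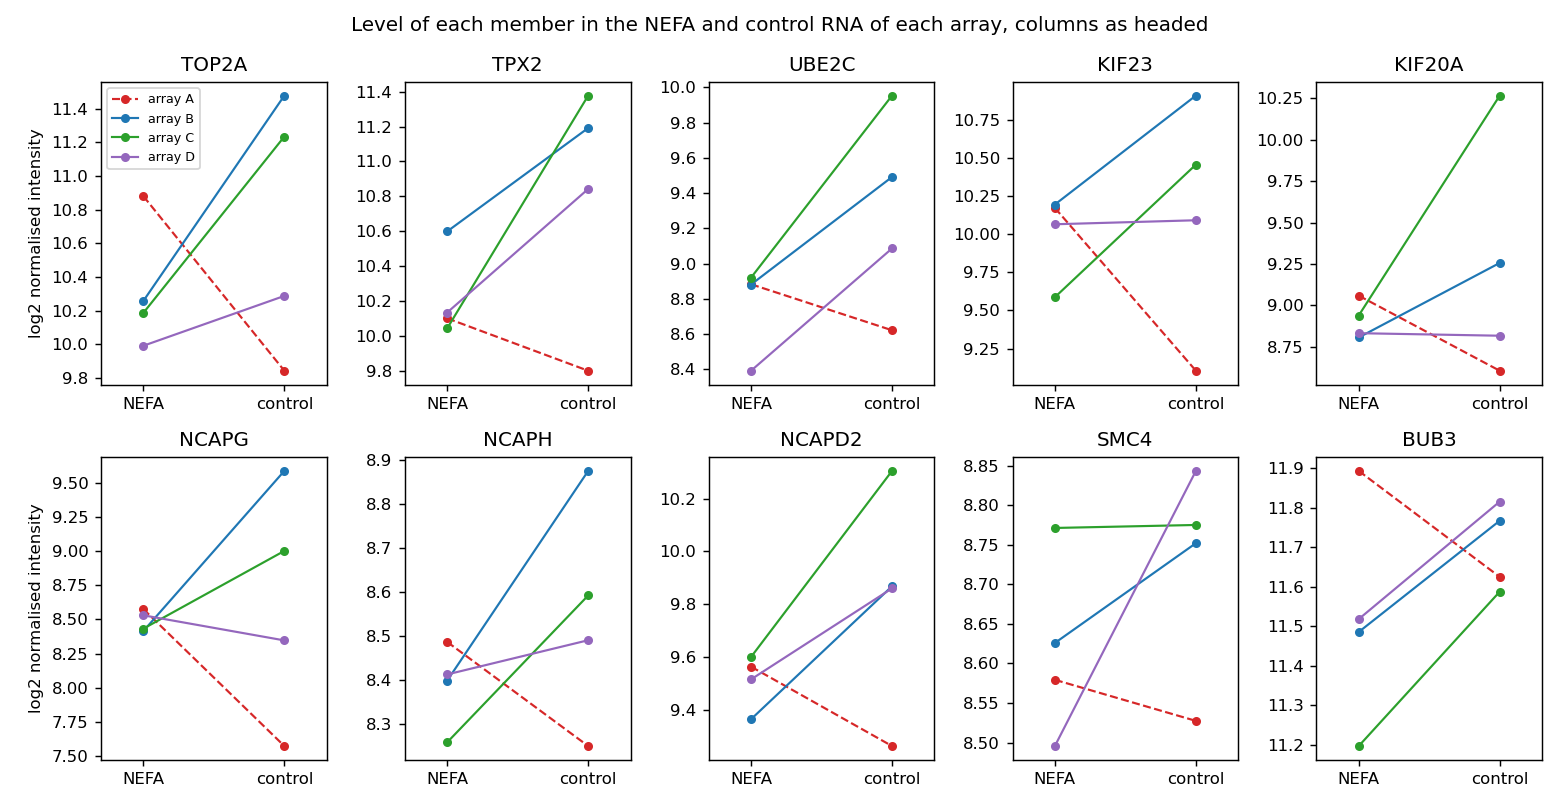
Log2 normalised intensity (y axis, scaled per gene) of each gene in both RNAs of each array, NEFA left and control right, with the columns as headed; a line joins the RNAs of 1 array and the dashed line is array A. For TOP2A, KIF23 and NCAPG the control points spread more widely than the NEFA points, and the array A line runs against those of arrays B and C in each panel except that of SMC4, where the array C line is flat.

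TPX2 starts microtubule growth around chromosomes and activates the spindle kinase Aurora A. It stood at 10.10, 10.60, 10.04 and 10.14 in NEFA RNA, against 9.80, 11.19, 11.38 and 10.84 in control RNA, so that the controls of arrays B, C and D were above all 4 NEFA levels. Its ratio was -0.58 as headed (standard error 0.24), the lowest of the 10, and missed the criterion (unadjusted p = 0.0534 from limma). With array A exchanged the ratio was -0.73 (standard error 0.17, unadjusted p = 0.00427 from limma), a 1.66-fold decrease, and without array A it was -0.88 (standard error 0.17).

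KIF23 and KIF20A are kinesins of cytokinesis, the first a subunit of centralspindlin, which bundles midzone microtubules, and the second a motor that carries the chromosomal passenger complex to the midzone. KIF23 had levels of 10.17, 10.19, 9.59 and 10.06 in NEFA RNA, against 9.10, 10.91, 10.46 and 10.09 in control RNA. Array D showed hardly any difference, with a ratio of -0.03, beside -0.71 on B and -0.87 on C and 1.07 on array A as headed. The fitted ratio was -0.14 as headed (standard error 0.32) and -0.67 with array A exchanged (standard error 0.17, unadjusted p = 0.00768 from limma). It was lower on arrays B, C and D alone (-0.54, standard error 0.18, unadjusted p = 0.0291 from limma).

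For KIF20A the levels were 9.06, 8.81, 8.94 and 8.83 in NEFA RNA, against 8.61, 9.26, 10.27 and 8.82 in control RNA. The control level of array C stood well above the rest, and the ratio there was -1.33, beside 0.45 on array A as headed, -0.45 on B and 0.02 on D. KIF20A had a ratio of -0.33 as headed (standard error 0.27) and -0.55 with array A exchanged (standard error 0.21, unadjusted p = 0.0359 from limma), and it missed the criterion on arrays B, C and D alone (-0.59, standard error 0.26, unadjusted p = 0.0651 from limma).

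BUB3 holds the spindle checkpoint kinase BUB1 and its partner BUBR1 at kinetochores until chromosomes are attached. Its levels were 11.89, 11.49, 11.20 and 11.52 in NEFA RNA, against 11.63, 11.77, 11.59 and 11.82 in control RNA. Apart from the sign of array A the ratios were nearly equal in size, 0.27 on A as headed, -0.28 on B, -0.39 on C and -0.30 on D. BUB3 had a ratio of -0.18 as headed (standard error 0.13, unadjusted p = 0.215 from limma), and of -0.31 with array A exchanged, where it had the smallest standard error of the 10, 0.07 (unadjusted p = 0.00538 from limma).

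UBE2C is the ubiquitin-conjugating enzyme that works with the anaphase-promoting complex to mark cyclin B and securin for destruction. It stood at 8.88, 8.88, 8.92 and 8.39 in NEFA RNA, against 8.62, 9.49, 9.95 and 9.09 in control RNA. On arrays B, C and D the control level was above every NEFA level, while on array A as headed the control level was below 3 of the 4. UBE2C fell by 0.52 on the log2 scale as headed (standard error 0.20, unadjusted p = 0.0434 from limma), which is 1.43-fold, and by 0.65 with array A exchanged (standard error 0.13, unadjusted p = 0.00234 from limma). The call as headed was lost without any 1 of replicates 2 (-0.49), 3 (-0.35) and 4 (-0.46), and held without replicate 1 (-0.78).

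The arrays differed in which genes had the largest ratios. On array B all 10 ratios were below 0 with a median of -0.55, and on array C all 10 were below 0 with a median of -0.79. On array D 8 of 10 were below 0 with a median of -0.30. On array A none was below 0 as headed and all 10 were after the exchange, the median being 0.30 as headed. Of all genes, 48.0%, 60.1% and 57.5% were below 0 on arrays B, C and D. On array A the share of all genes below 0 was 50.9% as headed and 49.0% after the exchange. The medians of all genes lay between -0.06 and 0.01 on the 4 arrays, and the SD over all genes was 0.28 to 0.33.

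On array C, TPX2 and KIF20A lay at the 0.0402 and 0.0502 percentile of all genes and UBE2C at the 0.201 percentile. TOP2A at the 0.0703 and NCAPG at the 0.110 percentile were lowest on array B. The same TOP2A, KIF23 and NCAPG had the 3 highest ratios of the members on array A as headed, at the 99.6, 99.7 and 99.6 percentile, and on array D they had -0.30, -0.03 and 0.18. NEFA RNA was in the green channel of arrays A and B and in the red channel of C and D by the channel fields, so a gene whose size differed between these pairs may also differ by dye. With a dye term and array A exchanged, the red over green effect was 0.45 for NCAPG, 0.23 for TOP2A and 0.22 for KIF23, against -0.29 for TPX2 and -0.21 for UBE2C, and the same 9 genes were lower. The NCAPG values rest in part on its local backgrounds on arrays A and B, given above.

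**Figure D3:**
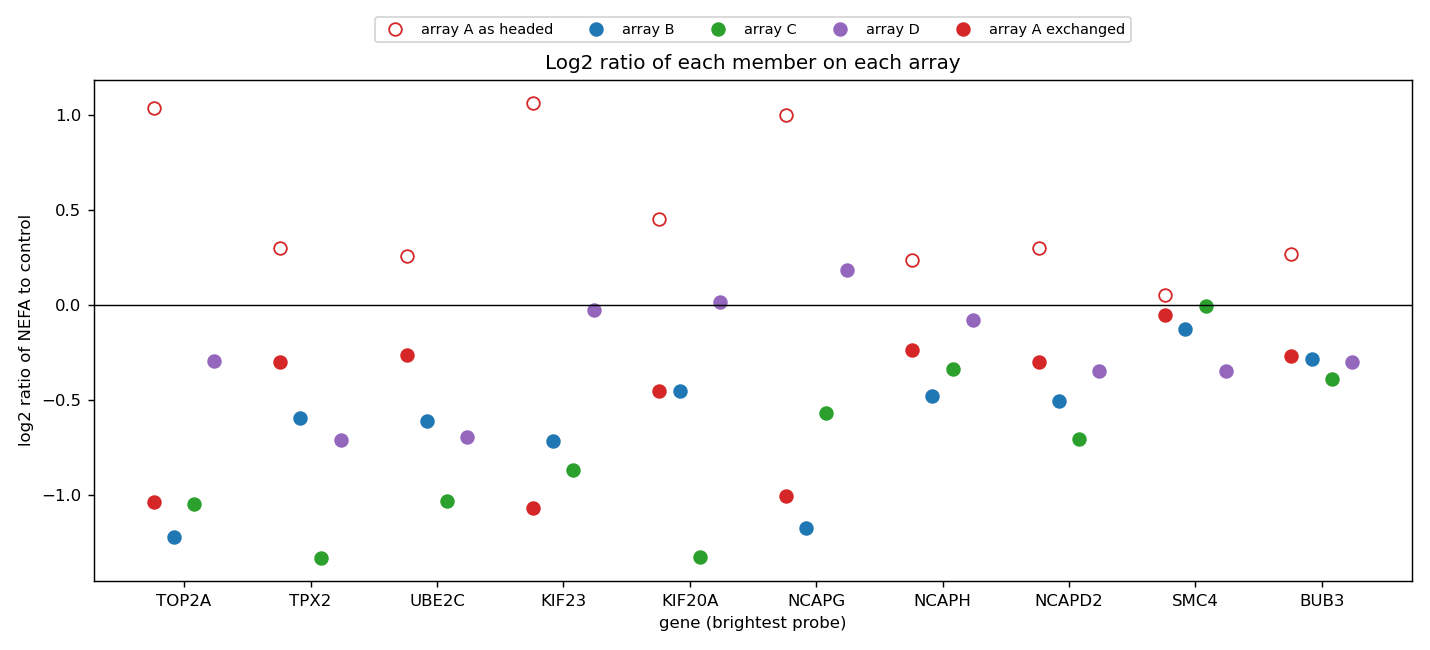
Log2 ratio of NEFA to control (y axis) of each gene on each array; open red circles are array A as headed and filled red circles the same array with its channels exchanged, which mirrors them about 0. Filled points lie below 0 except KIF20A at 0.02 and NCAPG at 0.18 on array D, and TOP2A, KIF23 and NCAPG lie near 1.0 on array A as headed.

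With the columns as headed, no member was lower on all 4 arrays, against 4.76% of all genes. After the exchange 8 of 10 were, against 9.38% of all genes, the exceptions being KIF20A and NCAPG, which were above 0 on array D. All 4 NEFA levels were below all 4 control levels for no member as headed, against 0.391% of all genes, and for TOP2A and NCAPH with array A exchanged, against 0.582%. On arrays B, C and D alone 8 of 10 members were lower on all 3 arrays, against 14.1% of genes. These genes were chosen with the ratios known, so the shares are given only beside each other.

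The spread within the groups was unequal. With the columns as headed the SD over the 4 arrays ran from 0.08 to 0.38 in NEFA RNA and from 0.11 to 0.87 in control RNA, and it was larger in control RNA for 9 of the 10 genes, BUB3 being the exception. After the exchange it was larger in control RNA for 7, the exceptions being KIF23, SMC4 and BUB3. The ratio pairs the RNAs of 1 array, so the spread shared by both RNAs of a replicate does not enter its standard error.

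The other 7 probes of the members were dim. TOP2A had a second probe, above background in 3 of 8 channels, with ratios of -0.15 as headed and -0.57 with array A exchanged (standard error 0.19, unadjusted p = 0.0202 from limma). The second KIF23 probe, above background in 2 channels, had -0.01 as headed and -0.15 with array A exchanged. The 3 further SMC4 probes, above background in 1 or 2 channels, lay between -0.05 and 0.14 as headed and between -0.03 and 0.01 with array A exchanged. The second probes of UBE2C and BUB3 were above background in no channel and give no fold. TPX2, KIF20A, NCAPG, NCAPH and NCAPD2 each rested on 1 probe.

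**Figure D4:**
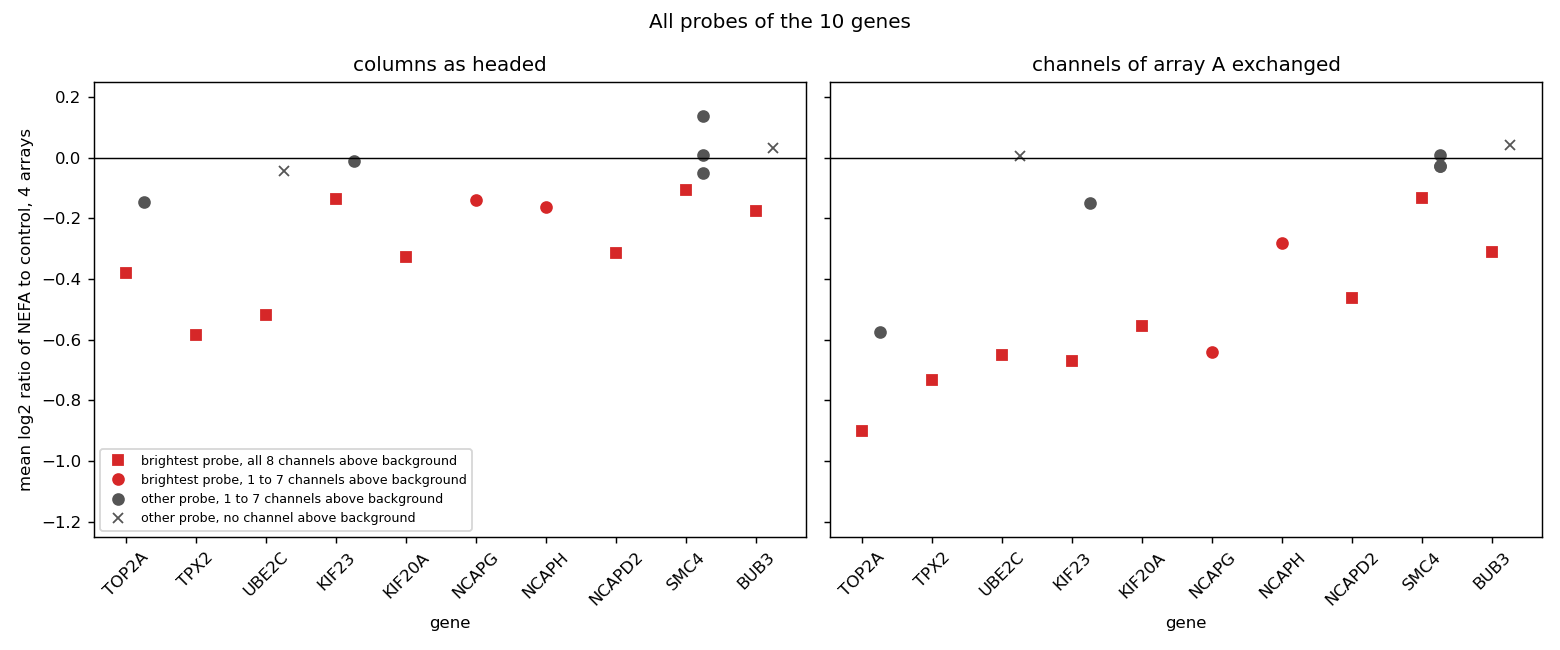
Mean log2 ratio of NEFA to control over 4 arrays (y axis) for all 17 probes of the 10 genes (x axis), with the columns as headed (left) and the channels of array A exchanged (right); red marks the brightest probe of a gene, grey the others, and the symbol shows in how many of 8 channels the probe was above background. The other probes lie nearer to 0 than the brightest probe of the same gene, with the TOP2A probe at -0.57 the lowest of them after the exchange, except for 1 SMC4 probe at 0.14 as headed.

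Other genes of mitosis were read from 6 lists of 123 symbols without the members, of which 79 were measured, 22 were above background on all 4 arrays of a group and 20 were above it in no channel, for which no ratio is given though they are in the counts. As headed 54 of the 79 (68.4%) were below 0 with a median of -0.05, against 58.1% of all genes with a median of -0.02, and 1 was lower and 0 higher past the criterion, against 0.522% and 0.281% of all genes. With array A exchanged 63 (79.7%) were below 0 with a median of -0.11, against 54.0% of all genes with a median of -0.01, and 10 were lower and 0 higher, against 3.08% and 1.08% of all genes. No list gene passed under both readings, and by the titles these counts would be of higher genes.

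Of 10 measured genes of condensin and cohesin, none passed under either reading, and the medians were -0.03 as headed and -0.09 with array A exchanged. The smallest p-values as headed were those of CDCA5, which protects cohesin and was above background in no channel, the cohesin loader NIPBL (-0.13 as headed, -0.15 with array A exchanged), the cohesin subunit STAG2 (-0.07 and -0.06) and the cohesin protease ESPL1 (-0.09 and -0.02). NIPBL was above background in all 8 channels, STAG2 in 5 and ESPL1 in 4.

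Among 21 measured genes of the spindle, kinesins and cytokinesis none passed as headed, where NUMA1, which focuses spindle poles, had 0.31 (0.26 with array A exchanged), and the kinesins KIFC1 and KIF18B had -0.16 (-0.11) and 0.17 (0.12). NUMA1 and KIF18B were above background in all 8 channels and KIFC1 in 3, while the abscission gene CEP55 was above it in none. With array A exchanged 3 were lower, namely SPAG5 (-0.52) and TACC3 (-0.48) of the spindle, each above background in 7 channels, and the kinesin KIF20B (-0.39), above it in 4. These, and further list genes given only for the exchange, were picked with their values in view.

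The kinetochore and checkpoint list had 14 measured genes and a median of -0.04 as headed and -0.18 with array A exchanged. The centromeric histone CENPA had -0.24 as headed (unadjusted p = 0.0317 from limma), under 1.2-fold, and -0.10 with array A exchanged, and was above background in 3 channels. SPC25 of the NDC80 complex had -0.34 and the checkpoint gene ZW10 -0.14 as headed, both above background in all 8 channels, while INCENP of the passenger complex was above it in 1, a NEFA channel, and is given no ratio. Lower after the exchange were SPC25 (-0.41) and the checkpoint genes MAD2L1 (-0.51) and BUB1B (-0.37), which encodes the BUBR1 that BUB3 binds. MAD2L1 was above background in all 8 channels and BUB1B in 6.

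Of 10 measured genes of the anaphase-promoting complex, the activator CDC20 had -0.18 as headed, the subunits ANAPC10 and ANAPC5 -0.18 and -0.14, and UBE2S, the enzyme that extends the chains UBE2C begins, -0.17, none of them past the criterion. Both subunits were above background in all 8 channels, CDC20 in 2 and UBE2S in 4. ANAPC10 (-0.34) was lower after the exchange, while UBE2S had -0.14. The complex's inhibitor FBXO5 was also called lower, but it was above background in 2 channels, neither of them a NEFA channel after the exchange, and is given no ratio.

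Among 17 measured mitotic kinases, cyclins and their transcription factors the medians were -0.07 under both readings. CKS2, a small partner of CDK1 and above background in all 8 channels, had -0.32 as headed and -0.47 with array A exchanged. The centrosome kinase NEK2 and MYBL2, which switches on G2 genes, were above background in no channel and LIN52 of the DREAM complex in 1, so no ratio is given for them. CKS2 alone of this list was lower past the criterion with array A exchanged.

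In the list of topoisomerases and mitotic chromatin, with 7 measured genes, the chromatin ATPase ATAD2 was lower as headed (-0.42, unadjusted p = 0.0358 from limma) and missed the criterion with array A exchanged (-0.37, unadjusted p = 0.0778 from limma). HMGB2 had -0.18 as headed and -0.14 with array A exchanged, and both it and ATAD2 were above background in 6 channels. The histone gene H2AFZ, listed also under its newer symbol H2AZ1, had -0.20 and -0.33, the second past the criterion. TOP2B, the isoform of topoisomerase II that resting cells use, had -0.09 as headed and 0.02 with array A exchanged, beside -0.38 and -0.90 for TOP2A.

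**Figure D5:**
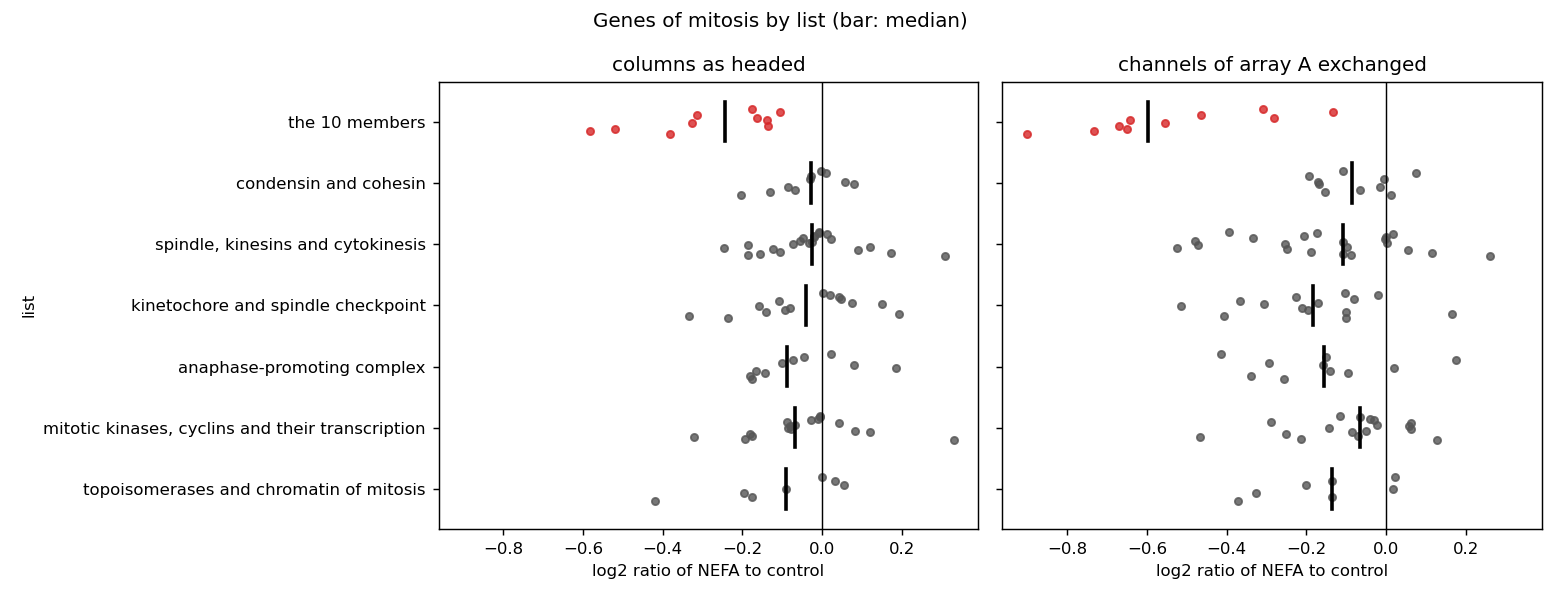
Fitted log2 ratio of NEFA to control (x axis) of the 10 members (red) and of the measured genes of 6 lists of mitosis (grey), with the columns as headed (left) and the channels of array A exchanged (right); each point is a gene, including those above background in no channel, and the bar is the median. The median of the members lies at -0.24 as headed and -0.60 after the exchange, and the list medians lie between -0.09 and -0.03 as headed and between -0.18 and -0.07 after it.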

How the data were processed

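The authors deposited scanner intensity values, the mean raw intensity and mean local background of 45220 spots per array in the green and red channels (PowerScanner and Array-Pro per the methods), without normalization. Of these, 43794 expression probes were analysed, and 13146 carried 1 gene symbol in the platform annotation and 30648 none. The array annotation was joined by spot number, checked by the brightness of 36 ribosomal protein genes (median percentile 98.7). Spots marked as ignored were left out, 60 to 121 of the probes on an array. Normexp (offset 50), loess within arrays and quantile normalization between arrays were applied in limma 3.58.1 (R 4.3.3), and normexp replaced the plain subtraction of the methods, which leaves values with no logarithm. The fit had 1 coefficient, the log2 ratio of NEFA over control signed by dye, and a two-sided test with Benjamini-Hochberg adjustment over all probes. The criterion, p below 0.05 before adjustment with at least a 1.2-fold difference, took the p and fold thresholds from the study's results.

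The channel fields were followed because 76.2% of 580 genes, members left out, then had the sign of the study's gene list. The share was 23.8% by the titles and 66.0% with array A exchanged. That list came from these same arrays, so the shares reflect the labelling that the study used. These shares cannot tell which dye held the NEFA RNA or whether array A was exchanged, and the direction is not certain. The control probes and local backgrounds do not rest on that list, and on array A both ran the opposite way to the other arrays. The study's own table of log2 ratios was not used here, since its rows could not be matched to spots. The 10 members and the lists were chosen with earlier results of these data known. All members are named, and from each list the up to 4 genes with the smallest p as headed. The alternatives were the exchange of array A alone and with a dye term, the sign of the titles, other background corrections and normalizations, probes above background only, a dye term, no replicate block, an intensity trend, the mean of all probes, and each replicate left out under both readings. Tested on simulated data (43794 probes), the fit called 94% of 100 probes with a 1.5-fold change, 99% of 100 with a 2-fold change and 2.84% of unchanged probes. On the real arrays as headed, 0.281% of genes were higher and 0.522% lower past the criterion, and TPX2 missed it at 1.50-fold. The simulated shares therefore do not give the rate at which such changes are found on these arrays. The number of arrays limits the precision. No probe sequences were used here.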

Additional observations from a re-analysis of the deposited data

Results flagged for a closer look

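In 3 sets of 4 values, 1 array stood apart from the rest by Dixon's test. Chance alone does this in about 1 of 20 sets, and the number of sets screened is not given here, so the 3 may be due to chance. TPX2 had a NEFA level of 10.60 on array B, against 10.04 to 10.14 in the NEFA RNA of the other arrays. UBE2C had a NEFA level of 8.39 on array D, against 8.88 to 8.92 on the others. BUB3 had a log2 ratio of 0.27 on array A as headed, against -0.39 to -0.28 on arrays B, C and D, and with the channels of array A exchanged that value was -0.27.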

How the results depend on the processing

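The median log2 ratio of the 10 members, -0.24 as headed, lay between -0.60 and -0.21 under the alternatives other than the titles and single replicates left out, and with the sign of the titles it was 0.24. Each gene then turned as well, to 0.18 for BUB3, 0.33 for KIF20A, 0.14 for KIF23, 0.31 for NCAPD2, 0.14 for NCAPG, 0.16 for NCAPH, 0.11 for SMC4, 0.38 for TOP2A, 0.58 for TPX2 and 0.52 for UBE2C. Against 1 member past the criterion as headed, the count was 9 with array A exchanged, with or without a dye term, 2 with a dye term as headed, without normalization between arrays and with the mean of all probes (TPX2 and UBE2C each time), and 0 with background subtraction, among probes above background only and with no replicate block. Without background correction the 1 gene past it was NCAPG (-0.35, unadjusted p = 0.0341 from limma, against -0.14 as headed) in place of UBE2C (-0.39). SMC4 then had -0.05. NCAPG had -0.23 and KIF23 -0.09 without normalization between arrays. With the mean of all probes UBE2C still passed at -0.28 (unadjusted p = 0.0461 from limma, against -0.52 as headed), while BUB3 had -0.07, KIF23 -0.07 and SMC4 -0.0026, the added probes being above background in 0 to 2 channels. Leaving out 1 replicate gave medians of -0.53 to -0.12 and 0 to 6 members as headed, with 6 without replicate 1 and 0 without each of the others, and medians of -0.69 to -0.45 and 6 to 9 members with array A exchanged, where BUB3, KIF23, NCAPD2, TOP2A, TPX2 and UBE2C passed each time and KIF20A, NCAPG and NCAPH only without replicate 4. As headed, the left-out ratios ran from -0.59 without replicate 1 to 0.0062 without replicate 3 for KIF20A, from -0.54 without replicate 1 to 0.11 without replicate 3 for KIF23 (0.06 without replicate 2), and from -0.52 without replicate 1 to 0.21 without replicate 2 for NCAPG (0.00 without replicate 3). Over all genes 80 passed as headed (28 higher, 52 lower), 415 with array A exchanged, 669 with a dye term besides, 19 without background correction, 10 among probes above background only and 44 with no replicate block, where the cause was not tested. The genes higher and lower numbered 36 and 41 when the background was subtracted, 34 and 33 when arrays were not normalized to each other and 40 and 40 with an intensity trend. Without 1 replicate the count was 27 to 1468 as headed, the highest without replicate 2, and 311, 372, 674 and 517 without replicates 1 to 4 with array A exchanged. Of 200 single-gene values under 20 alternatives, 130 kept direction and call, 48 passed newly, 7 no longer passed and 15 turned. Most of the 48 came from exchanging array A or leaving out replicate 1. Under the other alternatives only NCAPG and TPX2 passed newly. The fit without replicate 1 is the same under both readings and was counted under each. The pairing of the RNAs by array is part of the design, and the fit with no replicate block treats the 8 channels as unpaired. NCAPG and NCAPH, not above background in every NEFA channel, are the members least well measured.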
